A study of Mus musculus with 26 samples.

Results

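The 10 genes described here are used across cell biology to place cells on an axis from epithelial to mesenchymal. They are the adhesion and cytoskeletal genes Cdh1, Cdh2, Epcam, Vim and Fn1 and the transcription factor genes Zeb1, Zeb2, Snai1, Snai2 and Twist1. They were taken by gene symbol from the 55291 genes of the count table, with earlier results of these data known. All 10 passed the filter on low counts, among 20953 genes that did. They were measured by poly(A) RNA-seq in R1 cells, a mouse embryonic stem cell (ESC) line that was kept on gelatin with LIF, the cytokine that holds ESCs in the pluripotent state. The study asked how the transcription factor DUX drives such cells towards a state that resembles the totipotent 2-cell embryo. There were 26 libraries in 13 groups with 2 replicates each. The wild-type groups were untreated ESC, DMSO-treated ESC (DMSO), ESC given 0.53 µM retinoic acid for 48 h (RA), and ESC given the splicing inhibitor pladienolide B at 4 nM for 4 days (PlaB). The other wild-type groups received 4 µg/mL doxycycline for 24 h to express Zscan4 (Zscan4 OE), Dux (Dux OE) or the point mutant Dux R70A (R70A OE). The Dux knockdown groups (Dux KD) received RA, PlaB or Zscan4 OE. The groups with a super-enhancer knockout (SE KO), which the study describes as a CRISPR-Cas9 deletion of the super-enhancer of the Tdpoz gene cluster, received RA, PlaB or Dux OE. No untreated Dux KD or SE KO group is among them, so each of these groups was compared with the wild-type cells whose titles name the same induction. Whether a modified line was 1 clone, and whether the control cells carried the doxycycline-responsive construct, is not given in the sources used here.

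In an epithelium, cells are tied to their neighbours by E-cadherin, the product of Cdh1, and by EPCAM. In the epithelial to mesenchymal transition (EMT) these contacts are given up, N-cadherin (Cdh2), the intermediate filament protein vimentin (Vim) and the matrix protein fibronectin (Fn1) become prominent, and transcription factors of the ZEB, SNAIL and TWIST families are switched on. ZEB and SNAIL proteins bind E-box sequences of the form CACCTG and are known as repressors of Cdh1. Mouse ESCs grow as compact colonies held together by E-cadherin, and gastrulation, when mesoderm leaves the epiblast, is the embryonic form of EMT.

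The E-box letters CACCTG and their reverse complement CAGGTG, which are the same site read on either strand, were searched in the 250 bases before the RefSeq start of each gene (assembly GRCm38.p6). A promoter entry was given for 5 of the 10 genes. The window of Epcam held 2 matches and that of Snai1 held 1, and these windows are shown because they were the ones with a match. The entries of Twist1, Vim and Zeb2 held no match. Of the 32851 promoter windows of this length, 17.2% held at least 1 match and 2.06% held 2 or more. A match is a description of the letters and not evidence of binding. The windows lie at chr17:87635729-87635978 for Epcam and chr2:167537945-167538194 for Snai1, both on the plus strand, and capitals mark the matches. They begin 187 and 19 bases before the start of Epcam and 126 bases before that of Snai1.
Epcam: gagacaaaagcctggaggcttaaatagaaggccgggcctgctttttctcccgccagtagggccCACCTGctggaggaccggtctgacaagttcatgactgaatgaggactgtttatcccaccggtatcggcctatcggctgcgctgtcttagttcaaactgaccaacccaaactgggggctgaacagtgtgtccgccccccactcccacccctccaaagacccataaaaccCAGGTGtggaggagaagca
Snai1: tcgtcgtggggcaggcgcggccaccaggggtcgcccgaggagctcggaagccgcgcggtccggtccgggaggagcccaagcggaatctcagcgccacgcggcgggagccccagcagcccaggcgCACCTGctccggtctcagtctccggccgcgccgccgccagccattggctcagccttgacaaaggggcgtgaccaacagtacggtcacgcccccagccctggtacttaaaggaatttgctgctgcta

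The genes differ in how much of their signal could be shared with a neighbour. In the coordinates of the table, which are those of mm10, Cdh1 spans chr8:106603351-106670246 on the plus strand, Vim chr2:13573927-13582826 on the plus strand and Fn1 chr1:71585520-71653200 on the minus strand. Twist1 spans chr12:33957671-33959829 and Snai2 chr16:14705852-14709385, both on the plus strand, and Zeb2 spans chr2:44983632-45117395 on the minus strand. Cdh2 and Zeb1 are on chromosome 18. Exons of Fn1, Zeb1 and Zeb2 overlap a gene on the opposite strand over 2.5%, 1.93% and 3.23% of their exon bases, and the strand setting of the counting is not given in the sources used here, so reads in these stretches cannot be assigned to 1 strand.

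The library totals lay between 14401452 and 39402840 counted reads, and no pair of replicates differed by as little as sampling noise. Whether replicates are separate cultures is not stated in the labels, so the spread between these libraries may be technical. The p-values and standard errors of the main fit rest on a spread shared over all 26 libraries. They do not measure that of the compared groups alone. As a multiple of sampling noise, the variance between replicates ran from 1.55 in Dux KD RA to 30.2 in SE KO PlaB. It was 26.1 in Dux KD Zscan4 OE. For these 2 noisiest groups the p-values and standard errors may be too small. The knockdown target is listed as Duxf3, a copy of the tandem Dux repeat. Its counts were 191 and 181 with PlaB, 49 and 59 with RA and 27 and 17 with Zscan4 OE in wild-type cells. In the knockdown cells they were 1 and 0, 16 and 6, and 1 and 0 with these inductions. In the SE KO cells they were 38 and 45 with PlaB, 2 and 10 with RA and 55 and 39 with Dux OE, the last in deeper libraries. The part of these Duxf3 counts in the SE KO results was not tested. In wild-type cells Duxf3 had 55 and 48 counts in Dux OE and 0 in both libraries of R70A OE, so it does not check the mutant transgene. Zscan4c, a gene of the Zscan4 family, had 2 and 1 counts in R70A OE, 11126 and 11989 in Dux OE and 92 in both ESC libraries. Expression of the mutant in these libraries was not checked otherwise. All 8 ESC markers examined, Pou5f1 and Nanog among them, had more than 3 counts in every library. Replicate 1 of SE KO RA carries a wild-type genotype label against its title and was grouped by the title. Values that rest on it are given with this library left out where this matters. Both Dux KD Zscan4 OE libraries carry a treatment label of "no", without a dose or time, and were also grouped by title. Because both carry it, leaving out either library cannot check this label.

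Levels are given as RPKM (reads per 1000 exon bases per 1000000 reads, with TMM-scaled library sizes), so that genes of different length can be compared, with the SD of 2 replicates. Fn1 and Cdh1 were the highest of the 10 genes in most groups, at 180 ± 4.56 and 88.5 ± 1.43 RPKM in untreated ESC. Vim followed at 44.9 ± 1.06 and Epcam at 19.8 ± 0.286 RPKM. Among the transcription factor genes, Zeb1 was at 3.40 ± 0.105 RPKM and Snai1 at 1.77 ± 0.701 RPKM. Twist1 was at 0.650 ± 0.109 RPKM, Snai2 at 0.319 ± 0.0153 RPKM, Cdh2 at 0.219 ± 0.00643 RPKM and Zeb2 at 0.0335 ± 0.00386 RPKM, the last from 10 and 11 counts. Untreated ESC thus held E-cadherin, fibronectin and vimentin RNA together, with far less N-cadherin than E-cadherin RNA: the ratio of Cdh1 to Cdh2 RPKM was 391 and 417 in the 2 libraries.

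**Figure D1:**
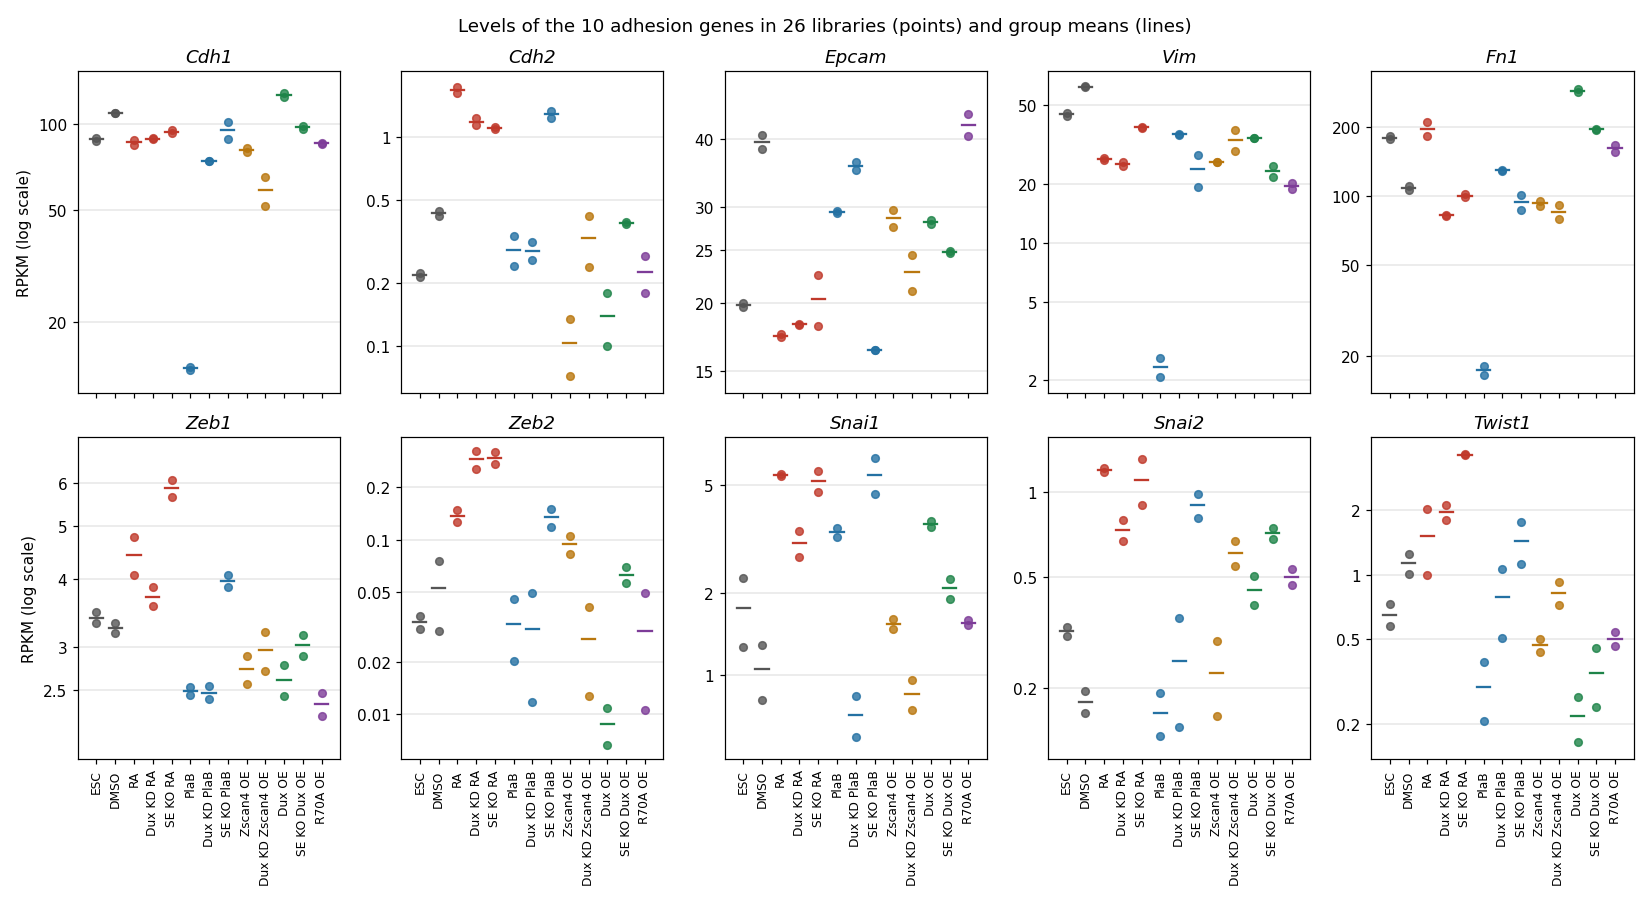
RPKM of each gene (log axis, own range per panel) in the 13 groups; points are the 2 libraries of a group and the short line is their mean. The PlaB libraries lie far below all others for Cdh1 (13.5 and 13.9 RPKM), Vim and Fn1, and the RA groups and SE KO PlaB lie highest for Cdh2.

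Across the groups, the adhesion genes and the transcription factor genes were ordered differently. Cdh1 was highest in Dux OE at 127 ± 2.51 RPKM, followed by DMSO at 110 ± 0.454 RPKM, and lowest in PlaB at 13.7 ± 0.275 RPKM. The 11 other group means lay between 58.4 and 110 RPKM, and from Dux KD RA (89.1 RPKM) over ESC and RA to R70A OE (85.7 RPKM) the replicates of neighbouring groups overlapped. Vim ranged from 62.2 ± 0.158 RPKM in DMSO to 2.35 ± 0.374 RPKM in PlaB, a ratio of 26.5, and the group next above PlaB was R70A OE at 19.4 ± 0.996 RPKM. Fn1 ranged from 289 ± 7.40 RPKM in Dux OE to 17.3 ± 1.04 RPKM in PlaB, a ratio of 16.7. PlaB was therefore the lowest of the 13 groups for Cdh1, Vim and Fn1, with no overlap with the next group for any of the 3. Epcam had a narrow range, from 42.4 ± 2.84 RPKM in R70A OE, which overlapped DMSO, to 16.4 ± 0.0195 RPKM in SE KO PlaB, a ratio of 2.58.

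Cdh2 was highest in RA at 1.68 ± 0.0699 RPKM. SE KO PlaB at 1.28 ± 0.0757 RPKM and Dux KD RA at 1.18 ± 0.0652 RPKM came next with overlapping replicates, followed by SE KO RA at 1.11 ± 0.0201 RPKM. The other 9 groups were at or below the 0.432 ± 0.0153 RPKM of DMSO, down to 0.103 ± 0.0441 RPKM in Zscan4 OE. The same 4 groups, RA, SE KO PlaB, Dux KD RA and SE KO RA, were also the highest 4 for Zeb1, Zeb2, Snai2 and Twist1. For Zeb1 they spanned 5.88 ± 0.308 RPKM in SE KO RA to 3.71 ± 0.209 RPKM in Dux KD RA, and for Snai2 they spanned 1.2 ± 0.0311 RPKM in RA to 0.733 ± 0.0884 RPKM in Dux KD RA, which overlapped SE KO Dux OE. Twist1 was highest in SE KO RA at 3.63 ± 0.0450 RPKM, above the next group, Dux KD RA, at 1.95 ± 0.212 RPKM. Zeb2 reached 0.294 ± 0.0337 RPKM in SE KO RA and was lowest in Dux OE, where it had 3 and 2 counts. Snai1 differed from the rest in that Dux OE (3.59 ± 0.131 RPKM) and PlaB (3.35 ± 0.172 RPKM) stood directly below SE KO PlaB, RA and SE KO RA at 5.46 ± 1.14, 5.43 ± 0.0747 and 5.16 ± 0.639 RPKM. Of the 12 steps between neighbours in these orders, those with overlapping replicates numbered 3 for Vim, 5 each for Cdh1, Epcam and Fn1, 7 for Cdh2 and Zeb1, 8 for Zeb2, Snai1 and Snai2, and 9 for Twist1.

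Seen as a ratio of Cdh1 to Cdh2 RPKM per library, the groups spread over more than 1 order of magnitude. The ratio was lowest in RA (51 and 51.9) and PlaB (40.2 and 57.4), next in SE KO PlaB (66.1 to 82.9), Dux KD RA (72.7 to 78) and SE KO RA (83.1 to 87). It was 248 and 261 in DMSO and highest in Zscan4 OE (611 and 1108) and Dux OE (691 and 1290). The low ratio in RA went with a high Cdh2 level and that in PlaB with a low Cdh1 level. The replicates of Dux OE and Zscan4 OE were far apart, and Cdh2 had between 9 and 20 counts in these libraries.

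Differences were tested with edgeR's quasi-likelihood test, and a gene is called when its p-value, adjusted over all 20953 genes by the Benjamini-Hochberg method, is under 0.05 and its log2 fold change (log2FC, given with its standard error) is at least 1 in size. Over the 13 comparisons the 10 genes gave 130 values, of which 39 were called, 26 higher and 13 lower. Of all genes tested, between 6.30% (SE KO Dux OE against Dux OE) and 58.9% (PlaB against DMSO) were called in a comparison. This total and the counts per gene that follow are therefore a description and not a result about the 10 genes. Zeb2 was called in 7 comparisons, Cdh2, Vim, Snai1 and Twist1 in 5 each, Fn1 in 4, Cdh1 and Snai2 in 3 each and Epcam in 2. Zeb1 was called in none by edgeR, where its unadjusted p-value was under 0.05 in 8 comparisons, and in 0 by DESeq2. In bulk RNA, fewer cells that express a gene and less RNA per cell cannot be told apart.

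**Figure D2:**
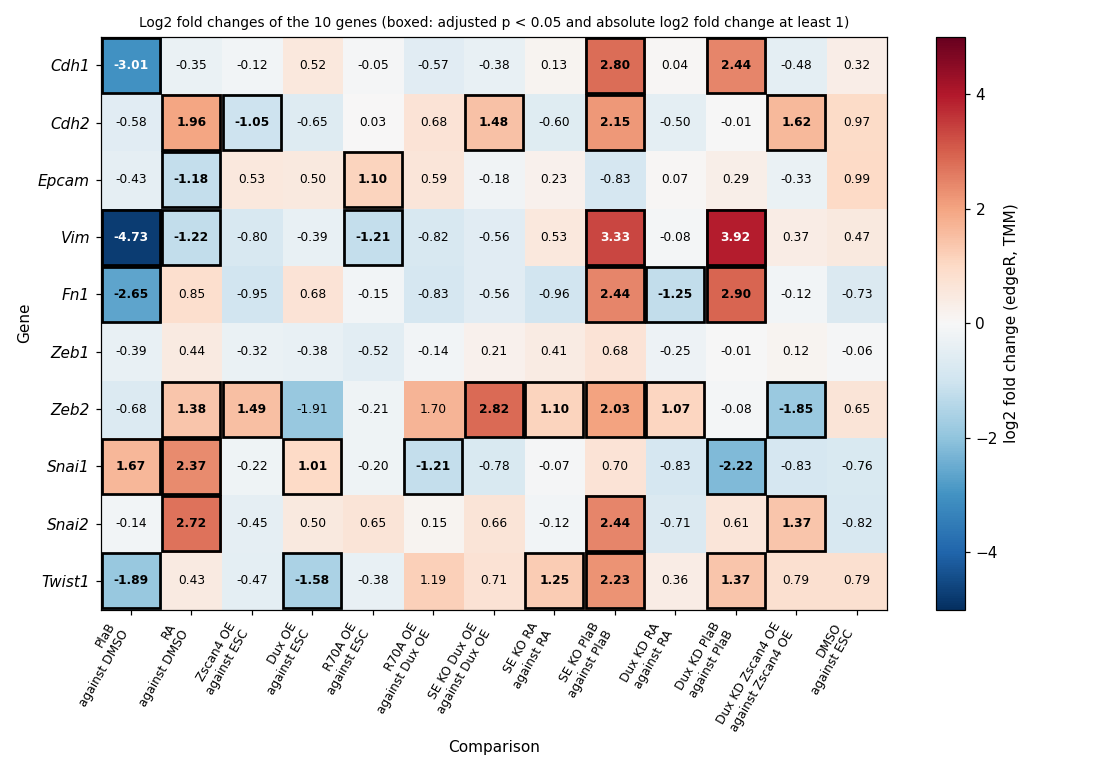
Log2 fold changes of the 10 genes (rows) in the 13 comparisons (columns), coloured from blue (lower in the first-named group) to red (higher), with boxes around the 39 called values. Vim in PlaB (-4.73) is the deepest blue cell, and the column of SE KO PlaB against PlaB holds 7 boxes, all red.

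PlaB treatment was compared with the DMSO-treated ESC. No time is listed for the DMSO group, and the same libraries serve as control for 4 days of PlaB and 48 h of RA. Whether they match either treatment in time is therefore not known. Vim, Cdh1 and Fn1, which mark opposite ends of the epithelial to mesenchymal axis, fell together, Twist1 fell as well, and Snai1 rose. Of the 10 genes, 1 was called higher and 4 lower, against a background of 32.3% of all genes called higher and 26.6% lower (58.9% either way), so the count alone is near the background. Cdh1 was at 13.5 and 13.9 RPKM in PlaB (1272 and 1397 counts) and at 110 RPKM in both DMSO libraries (8863 and 9223 counts). The groups were far apart, with a log2FC of -3.01 ± 0.09, or 8.07-fold lower (edgeR adjusted p = 7.0e-21). Vim was at 2.08 and 2.61 RPKM in PlaB and at 62.1 and 62.3 RPKM in DMSO, a log2FC of -4.73 ± 0.14 (edgeR adjusted p = 7.5e-21). Fn1 was at 16.6 and 18.0 RPKM in PlaB and at 106 and 111 RPKM in DMSO, a log2FC of -2.65 ± 0.09 (edgeR adjusted p = 5.9e-20). None of these groups overlapped.

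Snai1, the SNAIL gene best known as a Cdh1 repressor, had 108 and 124 counts in PlaB (3.23 and 3.47 RPKM) and 37 and 24 counts in DMSO (1.29 and 0.811 RPKM). Both PlaB libraries were above both DMSO libraries, with a log2FC of 1.67 ± 0.26 (edgeR adjusted p = 1.8e-06). Against untreated ESC the value was 0.91 (adjusted p = 0.00157), under the threshold on size. Twist1, a basic helix-loop-helix factor of mesoderm, had 7 and 14 counts in PlaB and 36 and 30 in DMSO, a log2FC of -1.89 ± 0.44 (edgeR adjusted p = 4.0e-04). Epcam (log2FC -0.43 ± 0.09), Zeb1 (-0.39 ± 0.11) and Cdh2 (-0.58 ± 0.25) had adjusted p-values under 0.05 and stayed under the threshold on size. Against untreated ESC the sign of 2 of these turned, with 0.56 for Epcam (adjusted p = 5.8e-06) and 0.39 for Cdh2 (adjusted p = 0.218). Zeb2 and Snai2 overlapped between the groups, with 19 and 9 against 27 and 11 counts and with 8 and 6 against 7 and 6 counts. The median log2FC of all genes tested was 0.22 with TMM scaling, 0.38 with RLE and 0.48 with library size only. Relative to the TMM median the values were -4.95 for Vim, -3.23 for Cdh1, -2.87 for Fn1, -2.11 for Twist1 and 1.45 for Snai1. Of the 39 calls in all comparisons, 39 were still at least 1 away from the median of all genes in their own comparison.

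Markers of other cell types were measured in the same libraries. The summed level of 10 primitive endoderm markers was 68.4 to 81.1 CPM (counts per 1000000) in PlaB and 145 to 149 CPM in DMSO, although 5 of them were called higher and 2 lower. That of 10 fibroblast markers was 16.7 to 19 CPM against 53.5 to 54.3 CPM, with Lum, Postn and Fap at 0 in all 4 libraries. Of the 8 ESC markers 5 were called lower, with Nanog at 74.1 CPM in PlaB and 911 CPM in DMSO, and of 7 trophectoderm markers tested 5 were called higher and 2 lower. Their part in the results for Vim, Fn1, Cdh1 and Twist1 was not tested.

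RA shares the DMSO control with PlaB and gave another picture. Cdh2, Snai1, Snai2 and Zeb2 rose, Epcam and Vim fell, and Cdh1 did not pass the threshold on size. Of the 10 genes, 4 were called higher and 2 lower, against 20.6% and 10.4% of all genes (31.0% either way). Cdh2 was at 1.63 and 1.73 RPKM in RA (299 and 300 counts) and at 0.443 and 0.421 RPKM in DMSO, a log2FC of 1.96 ± 0.22 (edgeR adjusted p = 1.3e-08). Snai1 was at 5.38 and 5.48 RPKM in RA against 1.29 and 0.811 RPKM in DMSO, a log2FC of 2.37 ± 0.25 (edgeR adjusted p = 5.4e-09). Snai2, the SNAIL family gene of migrating neural crest and mesoderm, had 54 and 53 counts in RA against 7 and 6 in DMSO, a log2FC of 2.72 ± 0.40 (edgeR adjusted p = 1.6e-06). For these 3 genes both RA libraries lay well above both DMSO libraries. Zeb2 had 58 and 64 counts in RA against 27 and 11 in DMSO, a log2FC of 1.38 ± 0.45 (edgeR adjusted p = 0.00965), and this call was lost without DMSO replicate 2 (0.85, adjusted p = 0.174) and without RA replicate 2 (1.26, adjusted p = 0.0517).

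Epcam was at 17.5 and 17.3 RPKM in RA and at 40.7 and 38.3 RPKM in DMSO, a log2FC of -1.18 ± 0.09 (edgeR adjusted p = 2.1e-11). Vim was at 26.4 and 26.9 RPKM in RA against 62.1 and 62.3 RPKM in DMSO, a log2FC of -1.22 ± 0.12 (edgeR adjusted p = 1.1e-09). Neither gene overlapped between the groups. Both calls rest on the DMSO control, since against untreated ESC the log2FC was -0.19 for Epcam (adjusted p = 0.0907) and -0.75 for Vim (adjusted p = 3.8e-06), and that of Epcam was -0.99 with library size only. Cdh1 was at 84.6 and 88.3 RPKM in RA, a log2FC of -0.35 ± 0.08 (edgeR adjusted p = 7.3e-04), and Fn1 was at 183 and 210 RPKM, a log2FC of 0.85 ± 0.08 (edgeR adjusted p = 1.6e-09), which reached 1.05 with library size only. Zeb1, at 4.07 and 4.78 RPKM against 3.32 and 3.18 RPKM, had a log2FC of 0.44 ± 0.10 (edgeR adjusted p = 6.5e-04). Twist1 overlapped, with 75 and 35 counts in RA and 36 and 30 in DMSO (edgeR adjusted p = 0.308), while against untreated ESC its log2FC was 1.22 (adjusted p = 0.00912).

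The primitive endoderm markers rose with RA, 9 of 10 being called higher, and their summed level was 687 to 724 CPM against 145 to 149 CPM in DMSO. Gata6, a defining factor of that lineage, was at 26.9 CPM in RA and 1.64 CPM in DMSO. The fibroblast markers summed to 107 to 122 CPM in RA against 53.5 to 54.3 CPM in DMSO, with Lum and Fap at 0 in both RA libraries. Of the 6 tested, 3 were called higher and the other 3 were not called (median log2FC 1.90 against 0.11 for all genes). The ESC markers summed to 3914 to 3945 CPM against 8202 to 8329 CPM. The part of these marker changes in the results for Cdh2, Snai1, Snai2 and Zeb2 was not tested.

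The doxycycline-induced groups share the untreated ESC control, so their values are not independent of one another. In Dux OE, Snai1 rose and Twist1 fell among the 10 genes (1 called higher and 1 lower, against 7.38% and 2.12% of all genes, 9.51% either way). Snai1 had 82 and 84 counts in Dux OE (3.69 and 3.50 RPKM) and 59 and 31 in ESC (2.27 and 1.27 RPKM), a log2FC of 1.01 ± 0.25 (edgeR adjusted p = 0.00298). The groups did not overlap, but the ESC libraries were far apart, and the value fell under the threshold without ESC replicate 2 (0.66, adjusted p = 0.103), without Dux OE replicate 1 (0.97) and with no low-count filter (0.96). Twist1 had 6 and 4 counts in Dux OE and 19 and 14 in ESC, a log2FC of -1.58 ± 0.58 (edgeR adjusted p = 0.0417), and it was lost on leaving out any 1 of the 4 libraries (adjusted p from 0.0711 to 0.246).

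Cdh1 and Fn1, the 2 most abundant genes, were higher in Dux OE than in ESC by less than the threshold on size, with no overlap. Cdh1 was at 125 and 129 RPKM against 87.5 and 89.6 RPKM, a log2FC of 0.52 ± 0.08 (edgeR adjusted p = 2.7e-05). Fn1 was at 284 and 294 RPKM against 177 and 183 RPKM, a log2FC of 0.68 ± 0.08 (edgeR adjusted p = 4.4e-07). Epcam had a log2FC of 0.50 ± 0.09, Vim of -0.39 ± 0.12 and Zeb1 of -0.38 ± 0.11, all with adjusted p-values under 0.05, and that of Epcam turned to -0.49 (adjusted p = 8.4e-05) against DMSO. Zeb2 had 5 counts over both Dux OE libraries and 21 over both ESC libraries, a ratio of ESC to Dux OE of 3.86 with a 95% counting interval of 1.41 to 13.1, and edgeR's adjusted p was 0.107. Against DMSO in place of untreated ESC, 6 of the 10 genes were called in Dux OE, Fn1 (1.41), Cdh2 (-1.63), Zeb2 (-2.55) and Snai2 (1.31) being added. The calls over all 20953 genes rose as well, from 1992 with untreated ESC to 3811 with DMSO. The 10 fibroblast markers summed to 58.0 to 61.9 CPM in Dux OE and 35.8 to 36.0 CPM in ESC, with Dcn, Lum, Postn and Fap at 0 in all 4 libraries.

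R70A OE was compared with the same control and with Dux OE. Against ESC, Epcam rose and Vim fell, 1 gene in each direction against 10.2% and 6.72% of all genes (16.9% either way). Epcam was at 44.4 and 40.4 RPKM in R70A OE and at 19.6 and 20.0 RPKM in ESC, a log2FC of 1.1 ± 0.09 (edgeR adjusted p = 3.9e-10). Vim was at 20.1 and 18.7 RPKM against 44.2 and 45.7 RPKM, a log2FC of -1.21 ± 0.12 (edgeR adjusted p = 5.1e-09), or -0.98 with library size only. Neither overlapped, but Epcam in R70A OE differed little from DMSO, with a log2FC of 0.10 (adjusted p = 0.427). With DMSO as the control, Snai2 (1.46, adjusted p = 0.0148) and Twist1 (-1.18, adjusted p = 0.0349) were added to the calls. Over all genes, 1897 were called with that control and 3550 with untreated ESC. Against Dux OE, 1 gene was called lower and the other 9 were not called, where 7.51% of all genes were called lower and 6.11% higher (13.6% either way). This was Snai1, at 1.52 and 1.59 RPKM in R70A OE and 3.69 and 3.50 RPKM in Dux OE, a log2FC of -1.21 ± 0.25 (edgeR adjusted p = 3.7e-04). Fn1 (log2FC -0.83 ± 0.08), Vim (-0.82 ± 0.12), Cdh1 (-0.57 ± 0.08) and Epcam (0.59 ± 0.09) differed between R70A OE and Dux OE with edgeR adjusted p-values of 1.0e-05 or smaller, below the threshold on size. With TMM scaling R70A OE lay at or below the ESC level for Cdh1 (85.5 and 85.9 RPKM) and Fn1 (168 and 156 RPKM). With library size only, the log2FC of R70A OE against ESC was 0.19 for Cdh1 (edgeR adjusted p = 0.0659) and 0.08 for Fn1 (edgeR adjusted p = 0.467). Against DMSO it was -0.36 for Cdh1 (edgeR adjusted p = 0.00135) and 0.58 for Fn1 (edgeR adjusted p = 5.3e-06). The contrast of R70A OE and Dux OE shares the Dux OE libraries with the comparison of Dux OE and ESC.

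Zscan4 OE changed 2 of the 10 genes against ESC, Zeb2 higher and Cdh2 lower, against 7.25% and 4.39% of all genes (11.6% either way). Zeb2 had 26 and 39 counts in Zscan4 OE and 10 and 11 in ESC, a log2FC of 1.49 ± 0.53 (edgeR adjusted p = 0.0276). Cdh2 had 9 and 20 counts in Zscan4 OE (0.0722 and 0.135 RPKM) against 0.224 and 0.215 RPKM in ESC, a log2FC of -1.05 ± 0.35 (edgeR adjusted p = 0.0193). The groups did not overlap for either gene, but both calls were lost without either ESC library, that of Cdh2 also without Zscan4 OE replicate 1 (-0.70, adjusted p = 0.197) and that of Zeb2 without Zscan4 OE replicate 2 (1.31, adjusted p = 0.147). Fn1, at 90.4 and 95.6 RPKM against 177 and 183 RPKM, had a log2FC of -0.95 ± 0.08 (edgeR adjusted p = 1.6e-09), just short of the threshold on size. Vim had a log2FC of -0.80 ± 0.12, Epcam of 0.53 ± 0.09 and Zeb1 of -0.32, with adjusted p-values under 0.05. Against DMSO the value of Epcam turned to -0.47 (adjusted p = 2.0e-04), and the call of Zeb2 was lost (0.84, adjusted p = 0.181). Vim (-1.27, adjusted p = 3.2e-09) and Twist1 (-1.26, adjusted p = 0.0230) were added to the calls with that control. Over all genes, 2674 were called with it and 2439 with untreated ESC.

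The knockdown of Dux was compared with wild-type cells whose titles name the same induction. In PlaB, Dux KD went with higher Cdh1, Vim, Fn1 and Twist1 and lower Snai1 (4 called higher and 1 lower, against 26.1% and 28.8% of all genes, 54.9% either way). Cdh1 was at 74.2 and 74.1 RPKM in Dux KD PlaB and 13.5 and 13.9 RPKM in PlaB, a log2FC of 2.44 ± 0.09 (edgeR adjusted p = 5.0e-19). Vim was at 35.3 and 35.8 RPKM against 2.08 and 2.61 RPKM, a log2FC of 3.92 ± 0.14 (edgeR adjusted p = 3.3e-19). Fn1 was at 129 and 130 RPKM against 16.6 and 18.0 RPKM, a log2FC of 2.90 ± 0.09 (edgeR adjusted p = 1.5e-20). Without overlap, these genes stood between PlaB and DMSO (Cdh1, Vim) or above both (Fn1, 106 and 111 RPKM in DMSO). Snai1 had 23 and 16 counts in Dux KD PlaB against 108 and 124 in PlaB, a log2FC of -2.22 ± 0.28 (edgeR adjusted p = 6.1e-08). Twist1 had 14 and 29 counts against 7 and 14, a log2FC of 1.37 ± 0.47 (edgeR adjusted p = 0.0112) that was lost without PlaB replicate 1 (1.0, adjusted p = 0.107) or Dux KD PlaB replicate 2 (0.74, adjusted p = 0.273). Since both contrasts use the PlaB libraries, a PlaB value far from the others gives opposite signs against DMSO and in Dux KD, and the values are therefore set side by side and not read as 2 findings. Markers of other states differed between the same libraries. Of the 8 ESC markers 5 were called higher in Dux KD PlaB and the other 3 were not called, with Nanog at 607 CPM against 74.1 CPM and Sox2 at 722 CPM against 26.2 CPM. Of the 10 primitive endoderm markers 5 were higher and 4 lower (254 to 259 CPM in sum against 68.4 to 81.1 CPM), and of 7 trophectoderm markers tested 2 were higher and 4 lower. Their part in the results was not tested.

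In RA, Dux KD went with lower Fn1 and higher Zeb2 (1 called in each direction, against 6.41% higher and 4.54% lower, 10.9% either way). Fn1 was at 82.8 and 82.2 RPKM in Dux KD RA and 183 and 210 RPKM in RA, a log2FC of -1.25 ± 0.08 (edgeR adjusted p = 2.0e-11), with no overlap. Zeb2 had 89 and 111 counts against 58 and 64, a log2FC of 1.07 ± 0.37 (edgeR adjusted p = 0.0229), which was lost with DESeq2 (1.07, adjusted p = 0.0517), without either RA library (0.96 and 1.18) and without Dux KD RA replicate 2 (0.88). Cdh1 (log2FC 0.04), Vim (-0.08) and Epcam (0.07) had adjusted p-values of 0.593 to 0.715. Snai1, at 3.40 and 2.72 RPKM in Dux KD RA, had a log2FC of -0.83 ± 0.22 (edgeR adjusted p = 0.00349), and it reached -1.0 without Dux KD RA replicate 1.

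In Zscan4 OE, Dux KD went with higher Cdh2 and Snai2 and lower Zeb2 (2 and 1 called, against 5.78% and 5.35%, 11.1% either way). Zscan4c, a gene of the Zscan4 family, had 1545 and 1897 counts in Zscan4 OE and 12 and 15 in Dux KD Zscan4 OE. Both untreated ESC libraries had 92. By this gene, Zscan4 induction was not visible in the knockdown libraries, and its part in the values below was not tested. Cdh2 was at 0.241 and 0.419 RPKM in Dux KD Zscan4 OE and 0.0722 and 0.135 RPKM in Zscan4 OE, a log2FC of 1.62 ± 0.33 (edgeR adjusted p = 4.3e-04). Its groups did not overlap, though the knockdown libraries were far apart. Zeb2 had 4 and 11 counts against 26 and 39, a log2FC of -1.85 ± 0.57 (edgeR adjusted p = 0.0135), lost without Dux KD Zscan4 OE replicate 1 (-1.20, adjusted p = 0.175) or Zscan4 OE replicate 2 (-1.66, adjusted p = 0.0911). Snai2 had 17 and 18 counts against 5 and 11, a log2FC of 1.37 ± 0.44 (edgeR adjusted p = 0.0174), lost without Dux KD Zscan4 OE replicate 2 (1.22, adjusted p = 0.0888), without Zscan4 OE replicate 1 (1.03, adjusted p = 0.151), with no low-count filter (1.30) and in a fit of the compared groups alone (adjusted p = 0.0854). Cdh1 was at 65.4 and 51.4 RPKM against 80.0 and 82.5 RPKM, a log2FC of -0.48 ± 0.08 (edgeR adjusted p = 7.8e-05). With each library left out in turn, this log2FC ranged from -0.66 to -0.31, which is wider than its standard error.

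SE KO under PlaB gave the largest number of called members, 7 higher and the other 3 not called, against 25.9% of all genes called higher and 26.1% lower (52.0% either way). The 7 were Cdh1, Vim, Fn1, Cdh2, Zeb2, Snai2 and Twist1, so that genes of both ends of the axis were higher together. Cdh1 was at 88.6 and 102 RPKM in SE KO PlaB against 13.5 and 13.9 RPKM in PlaB, a log2FC of 2.80 ± 0.09 (edgeR adjusted p = 3.8e-20). Vim was at 19.3 and 27.9 RPKM against 2.08 and 2.61 RPKM, a log2FC of 3.33 ± 0.14 (edgeR adjusted p = 9.1e-18), and Fn1 at 101 and 87.0 RPKM against 16.6 and 18.0 RPKM, a log2FC of 2.44 ± 0.09 (edgeR adjusted p = 4.1e-19). Cdh2 was at 1.34 and 1.23 RPKM (249 and 213 counts) against 0.336 and 0.242 RPKM (56 and 43 counts), a log2FC of 2.15 ± 0.23 (edgeR adjusted p = 2.1e-09). All 4 genes were clear of the PlaB libraries, and Cdh2 was also above its DMSO level of 0.443 and 0.421 RPKM, which Vim was not.

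The transcription factor genes moved with them. Snai2 had 46 and 35 counts in SE KO PlaB against 8 and 6 in PlaB, a log2FC of 2.44 ± 0.40 (edgeR adjusted p = 5.4e-06). Zeb2 had 70 and 51 counts against 19 and 9, a log2FC of 2.03 ± 0.47 (edgeR adjusted p = 3.7e-04), and Twist1 had 42 and 61 against 7 and 14, a log2FC of 2.23 ± 0.42 (edgeR adjusted p = 3.6e-05). None of these groups overlapped, and all 7 calls were made whichever of the 4 libraries was left out. Epcam was at 16.4 RPKM in both SE KO PlaB libraries against 29.4 and 29.2 RPKM, a log2FC of -0.83 ± 0.09 (edgeR adjusted p = 7.0e-09), while Zeb1 (0.68 ± 0.11) and Snai1 (0.70 ± 0.21) also stayed under the threshold on size. The primitive endoderm markers summed to 480 to 522 CPM in SE KO PlaB against 68.4 to 81.1 CPM in PlaB, 7 of 10 were called higher, and Gata6 was at 37.6 CPM against 5.72 CPM. The fibroblast markers summed to 42.1 to 45.3 CPM with Dcn, Lum and Postn at 0, and 4 of 8 ESC markers were called higher and 1 lower. The part of these markers in the results was not tested.

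Under RA, SE KO went with higher Zeb2 and Twist1 (2 called higher and the other 8 not called, against 6.57% of all genes higher and 11% lower, 17.6% either way). Twist1 was at 3.60 and 3.66 RPKM in SE KO RA (126 and 141 counts) against 2.03 and 1.0 RPKM in RA (75 and 35 counts), a log2FC of 1.25 ± 0.31 (edgeR adjusted p = 0.00165), or 0.84 (adjusted p = 0.0647) without RA replicate 2. Zeb2 had 138 and 129 counts against 58 and 64, a log2FC of 1.1 ± 0.36 (edgeR adjusted p = 0.0143). Both SE KO libraries lay above both RA libraries for both genes. Without replicate 1 of SE KO RA, whose genotype label is at odds with its title, Zeb2 had a log2FC of 0.98 (adjusted p = 0.0875) and the number of called members was 1, and without RA replicate 1 Zeb2 had a log2FC of 1.0 (adjusted p = 0.101). Fn1, at 99.2 and 102 RPKM against 183 and 210 RPKM, had a log2FC of -0.96 ± 0.08 (edgeR adjusted p = 6.5e-10), which passed the threshold on size with library size only (-1.01) and without RA replicate 1 (-1.05). Primitive endoderm markers summed to 324 to 342 CPM in SE KO RA against 687 to 724 CPM in RA, with 4 of 10 called lower. The fibroblast markers summed to 145 to 158 CPM against 107 to 122 CPM, with Col3a1, Dcn and Lum at 0 in SE KO RA, and 1 of the 6 tested was higher and 2 lower. Of 8 neural markers tested 3 were called higher and the other 5 were not called, and of 7 trophectoderm markers 3 were higher and 1 lower. The neural marker Nes, at 84.5 CPM against 52.1 CPM, was higher by less than the threshold on size. The part of these markers in the values of Zeb2 and Twist1 was not tested.

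With Dux OE, SE KO went with higher Cdh2 and Zeb2 (2 called higher and the other 8 not called, against 2.46% of all genes higher and 3.84% lower, 6.30% either way). Cdh2 was at 0.395 and 0.385 RPKM in SE KO Dux OE against 0.181 and 0.10 RPKM in Dux OE, a log2FC of 1.48 ± 0.30 (edgeR adjusted p = 5.3e-04). Zeb2 had 53 and 35 counts against 3 and 2, a ratio of 7.35 with a 95% counting interval of 3.03 to 23.2 (edgeR adjusted p = 0.00462), lost without Dux OE replicate 2 (adjusted p = 0.0734). The groups were apart for both genes. Snai1, at 2.26 and 1.90 RPKM against 3.69 and 3.50 RPKM, had a log2FC of -0.78 ± 0.23 (edgeR adjusted p = 0.0115), Fn1 of -0.56 ± 0.08, Vim of -0.56 ± 0.12 and Cdh1 of -0.38 ± 0.08. In the same libraries 7 of the 10 fibroblast markers had more than 3 counts in both replicates, against 4 of 10 in Dux OE. That number is not scaled for depth, and the SE KO Dux OE libraries held 39402840 and 32990350 reads against 15016024 and 16092561. Scaled for depth, the markers summed to 127 to 132 CPM against 58.0 to 61.9 CPM. Of the 6 tested, 4 were called higher and 2 were not called (median log2FC 3.38 against -0.02 for all genes). Postn was at 12.9 CPM and Col3a1 at 3.66 CPM in SE KO Dux OE, with Fap and Twist2 at 0. Their part in the higher Cdh2 and Zeb2 counts was not tested.

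Whether the effects of Dux KD and SE KO differed between PlaB and RA was tested as an interaction in the same model, which uses no library on both sides. For Dux KD, Cdh1, Vim and Fn1 had a higher and Snai1 a lower log2FC in PlaB than in RA, 4 called of 10 (3 higher and 1 lower) against 52.2% of all genes, 25.5% higher and 26.6% lower. Without Dux KD PlaB replicate 1 the number was 7, with Zeb2 (-2.51), Snai2 (1.82) and Twist1 (1.45) added. The difference was largest for Fn1 at 4.15 ± 0.12 (edgeR adjusted p = 2.2e-20), which had opposite signs in the 2 inductions, with a log2FC of 2.90 in PlaB and -1.25 in RA. For SE KO, 6 of 10 genes were called (5 higher and 1 lower) against 49.0% of all genes, 28.3% higher and 20.7% lower: Cdh1, Cdh2, Vim, Fn1 and Snai2 had a higher and Epcam a lower log2FC in PlaB. Cdh2 had opposite signs, with a log2FC of 2.15 in PlaB and -0.60 ± 0.19 in RA (edgeR adjusted p = 0.0126 for the latter). Both shares are near the background of all genes.

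**Figure D3:**
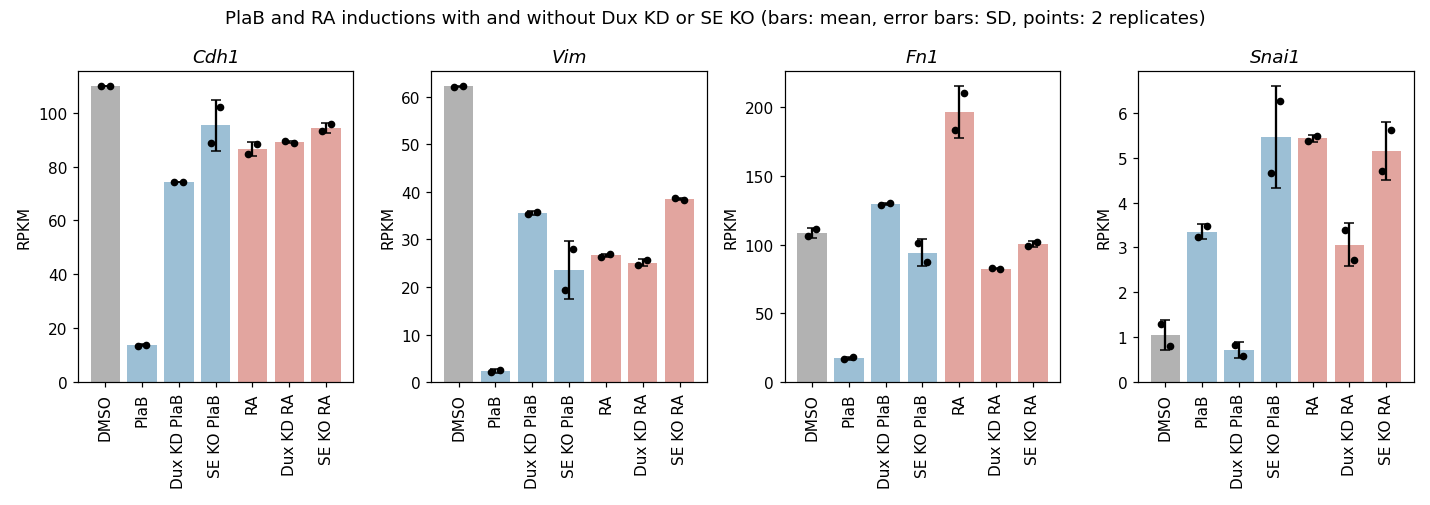
RPKM (linear axis from 0) of Cdh1, Vim, Fn1 and Snai1 in DMSO and in the PlaB and RA groups with and without Dux KD or SE KO; bars are means, error bars SD and points the 2 libraries. For Cdh1, Vim and Fn1 the PlaB bar alone is near 0, and for Snai1 the bars of DMSO and Dux KD PlaB (1.05 and 0.713 RPKM) are the lowest.

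The DMSO and untreated ESC groups, both controls, were compared as well. None of the 10 genes was called by edgeR, 6 had an unadjusted p-value under 0.05 and DESeq2 called 0, while 16.2% of all genes were called, 8.32% higher and 7.91% lower. Epcam came closest, at 40.7 and 38.3 RPKM in DMSO and 19.6 and 20.0 RPKM in ESC, a log2FC of 0.99 ± 0.09 (edgeR adjusted p = 2.3e-09), followed by Cdh2 at 0.97 ± 0.28 (edgeR adjusted p = 0.00523). Fn1 had a log2FC of -0.73 ± 0.08 (edgeR adjusted p = 6.8e-08). Which control was used therefore moved the values of Epcam and Cdh2 by about the threshold on size.

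Other genes of the same biology were taken from 5 lists of junction, regulator, matrix, transcription factor and signalling genes. Of all genes tested, 32.3% were called higher and 26.6% lower in PlaB, and 20.6% and 10.4% in RA. The shares were 25.9% and 26.1% in SE KO PlaB and 26.1% and 28.8% in Dux KD PlaB. Those of the other comparisons stand beside the counts of the 10 genes above. With RA, 13 of 22 tested mesenchymal adhesion and matrix genes were called higher and the other 9 were not called, and the list's median log2FC was 1.38 against 0.11 for all genes. Thbs1, a matrix glycoprotein gene, was at 2.76 CPM in RA and 0.137 CPM in DMSO. With PlaB the same list divided into 7 higher and 8 lower (median 0.33 against 0.22 for all genes), Loxl2, which codes for a collagen cross-linking enzyme, falling from 45.3 to 0.372 CPM (log2FC -6.89 ± 0.35, edgeR adjusted p = 4.9e-16). In SE KO PlaB, 9 of the 22 were called higher and 1 lower (median 0.80), with the membrane metalloprotease gene Mmp14 at 72.0 CPM against 3.22 CPM in PlaB (log2FC 4.48 ± 0.23, edgeR adjusted p = 6.8e-16). Dux KD PlaB had 8 higher and 8 lower.

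**Figure D4:**
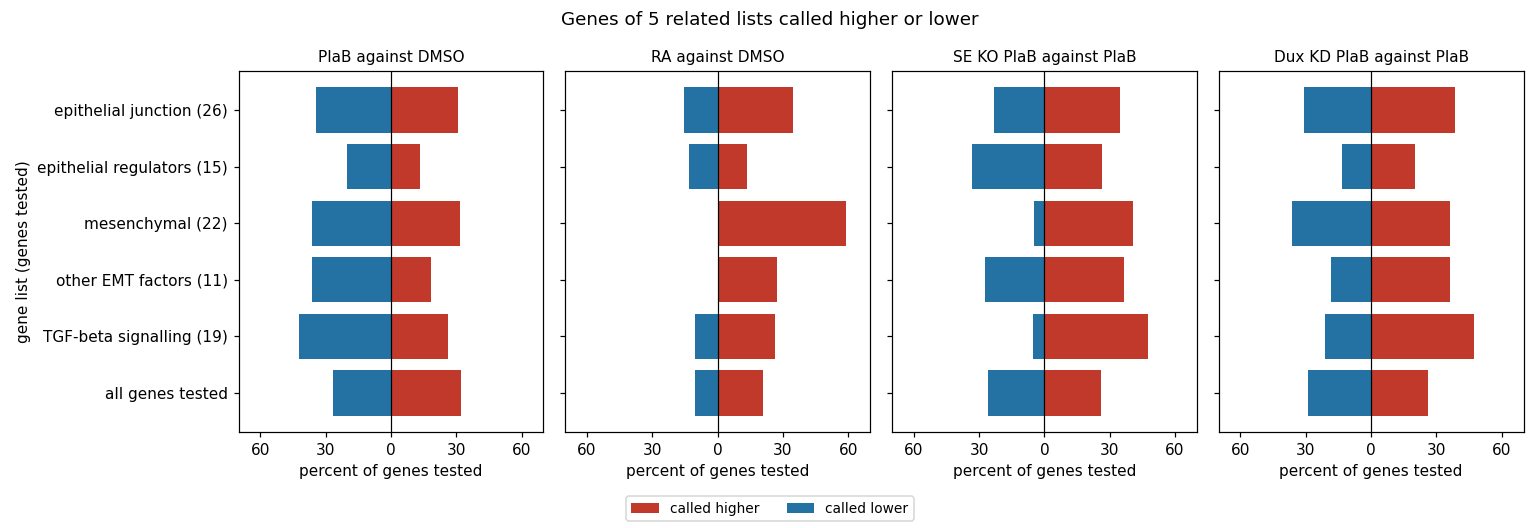
Share of the tested genes of each of 5 lists, and of all genes, that were called higher (red, to the right) or lower (blue, to the left) in 4 comparisons. In RA against DMSO the mesenchymal list has 13 of 22 genes to the right, and in PlaB against DMSO every list has bars on both sides.

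Among 26 epithelial junction and cytoskeleton genes, PlaB had 8 called higher and 9 lower. The simple-epithelial keratin genes Krt8 and Krt18 rose from 9.82 to 302 CPM (log2FC 4.94 ± 0.20, edgeR adjusted p = 2.3e-18) and from 6.44 to 131 CPM (4.35 ± 0.20, edgeR adjusted p = 5.1e-17), while Cdh1 fell in the same libraries. In Dux KD PlaB this list had 10 higher and 8 lower, with Krt8 at 11.6 CPM, and in SE KO PlaB it had 9 higher and 6 lower, with the tight junction scaffold gene Tjp1 at 328 CPM against 33.8 CPM in PlaB. RA had 9 higher and 4 lower in this list. The desmosomal cadherin gene Dsc2 rose from 2.51 to 59.2 CPM (log2FC 4.56 ± 0.23, edgeR adjusted p = 2.1e-15), and the P-cadherin gene Cdh3 fell from 86.3 to 11.7 CPM (log2FC -2.89 ± 0.16, edgeR adjusted p = 2.5e-14). R70A OE had 8 higher and 2 lower, with the claudin gene Cldn6 at 21.1 CPM against 4.12 CPM in ESC. Dux OE had 1 of 26 called, the tight junction gene Tjp3 at 11.5 CPM against 5.46 CPM.

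Of 15 epithelial regulators, 2 were called higher and 3 lower in PlaB and 2 each way in RA, where the epithelial transcription factor gene Elf3 rose from 56.7 to 528 CPM (log2FC 3.22 ± 0.18, edgeR adjusted p = 3.3e-14). The splicing regulator gene Esrp1 was at 4.66 CPM in DMSO, 0.962 CPM in PlaB and 8.40 CPM in Dux KD PlaB. SE KO PlaB had 4 higher and 5 lower. Of 11 other EMT transcription factor genes tested, 2 were higher and 4 lower in PlaB (median log2FC -2.02), with the E-protein gene Tcf3 falling from 107 to 13.3 CPM (log2FC -3.01 ± 0.10, edgeR adjusted p = 3.7e-20). Tcf3 was at 74.3 CPM in SE KO PlaB and 94.6 CPM in Dux KD PlaB. Sox9 was at 39.2 CPM in RA, 7.82 CPM in Dux KD RA and 8.07 CPM in SE KO RA. In Dux OE, 1 of the 11 was called, the SNAIL family gene Snai3, at 10.5 CPM against 2.83 CPM in ESC (log2FC 1.90 ± 0.23, edgeR adjusted p = 4.1e-07), and it was at 2.91 CPM in R70A OE.

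Of 19 genes of TGF-beta signalling, a pathway known to induce EMT, 5 were higher and 8 lower in PlaB. The ligand gene Tgfb1 fell from 18.8 to 0.455 CPM (log2FC -5.38 ± 0.29, edgeR adjusted p = 1.4e-15), and it was at 11 CPM in SE KO PlaB and 14.4 CPM in Dux KD PlaB. Of the list, 9 genes were higher and 1 lower in SE KO PlaB, and 9 higher and 4 lower in Dux KD PlaB. RA had 5 higher and 2 lower, with the co-receptor gene Tgfbr3 rising from 2.19 to 14.7 CPM. In Dux OE 3 were lower, among them the inhibitory Smad gene Smad7 at 50.6 CPM against 142 CPM in ESC (log2FC -1.49 ± 0.13, edgeR adjusted p = 7.8e-10). These lists are described by counts, and nothing is drawn from them about the pathways as such.

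In Zscan4 OE against ESC (7.25% of all genes higher and 4.39% lower), the junction list of 26 genes had 4 higher and 1 lower. Its gene Cldn6 was at 17.7 CPM against 4.12 CPM. The mesenchymal list, with 22 genes tested, had 5 higher and 3 lower. In Dux KD Zscan4 OE against Zscan4 OE (5.78% of all genes higher and 5.35% lower), the junction list had 1 higher and 5 lower. Cldn6 was at 3.81 CPM and the tight junction adaptor gene Cgn at 14.8 CPM against 44.5 CPM, and Esrp1 fell from 13.7 to 2.89 CPM. In Dux KD RA against RA (6.41% of all genes higher and 4.54% lower), the junction list had 1 higher and 4 lower. Its gene Cdh3 was at 2.70 CPM against 11.7 CPM. The mesenchymal list had 1 higher and 4 lower, with Mmp14 at 9.04 CPM against 31.3 CPM. In SE KO RA against RA, the junction list had 2 higher and 4 lower, with the junctional adhesion molecule gene F11r at 50 CPM against 122 CPM. The mesenchymal list had 2 higher and 3 lower there, with the proteoglycan gene Vcan falling from 31.4 to 11 CPM. In SE KO Dux OE against Dux OE (2.46% of all genes higher and 3.84% lower), the mesenchymal list had 4 higher and the other 18 not called. The hyaluronan receptor gene Cd44 was at 2.07 CPM against 0.494 CPM. In DMSO against ESC (8.32% of all genes higher and 7.91% lower), 6 junction genes were higher and 2 lower. Tjp3 was at 21.2 CPM against 5.46 CPM and the plakoglobin gene Jup at 69.7 CPM against 252 CPM.

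The patterns of the 10 genes over the 13 groups were related to one another as follows, as a description with Pearson's r of group mean log2 CPM over 13 points that share libraries and depth. Cdh1 had the highest r of any pair with Vim (0.89) and with Fn1 (0.87), and Vim with Fn1 had 0.75. Zeb1 resembled Twist1 (0.85) and Zeb2 (0.80), and Cdh2 resembled Twist1 (0.80). Epcam ran opposite to Zeb1 (-0.72), Snai2 (-0.70), Cdh2 (-0.64) and Snai1 (-0.64). Among all genes above a mean log2 CPM of 1, the nearest to Cdh1 were Wasf1 (0.975) and Pcbp2 (0.974), the nearest to Vim were the ribosomal protein gene Rpl7a (0.960), whose reads may be shared with near-identical pseudogenes, and Zc3h7b (0.959), and the nearest to Fn1 was Ipo9 (0.963). The nearest to Epcam were Hprt (0.922) and the tight junction gene Tjp3 (0.918). Cdh2 was nearest to L3mbtl3 (0.916), Zeb1 to Mamdc4 (0.941), Zeb2 to Nudt10 (0.917), Snai1 to Bcl9l (0.899), Snai2 to the TGF-beta receptor gene Tgfbr2 (0.904) and Twist1 to Pvr (0.960). For Cdh1, Vim and Fn1 the PlaB group is far from the other 12, and r without it was not computed.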

How the data were processed

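Poly(A) RNA of 26 R1 ESC libraries was sequenced from NEBNext Ultra II libraries. The authors deposited whole-number read counts per gene for 55291 genes, without normalization, with positions and exon lengths. Per the submitters' processing notes, FastQC, Trimmomatic, STAR, featureCounts, DESeq2 and mm10 were used, and the versions and the settings for strand and multi-mapped reads are not given in the sources used here. All count columns were used, and samples were grouped by their titles.

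Counts were tested with edgeR 4.0.16 (R 4.3.3, quasi-likelihood F-test, TMM, filterByExpr, prior count 0.125) in 1 model of 26 libraries with 1 mean per group and no covariate. The common biological coefficient of variation was 0.0833. DESeq2 1.42.0 was an alternative, beside RLE and library size scaling, no low-count filter, a fit of the compared groups only, a replicate block, the other control group and leaving out each library. The code was tested on simulated counts. Depth limits genes near 3 counts (0.0761 to 0.208 CPM). Intervals on ratios of counts cover counting error only. The correlation of same-numbered replicates' deviations lay between -0.0473 and 0.0237, so the numbers were not treated as pairs.

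The members, the 5 related lists (26 epithelial junction and cytoskeleton genes, 15 epithelial regulators, 25 mesenchymal genes, 12 other EMT transcription factors, 19 TGF-beta signalling genes) and the marker lists (ESC, fibroblast, primitive endoderm, mesendoderm, neural, trophectoderm) were chosen with earlier results of these data known. Named genes are the members and, per list and comparison, at least 1 of the 2 called genes with the largest fold change whose groups did not overlap and whose mean log2 CPM reached 1, though lists with few calls in a comparison are left unnamed there. For each member the 2 genes with the highest r were computed, and at least 1 is named. Marker genes are named where they define a list. Promoter sequences are those of RefSeq for GRCm38.p6. One gene of the related lists is not reported here.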

Additional observations from a re-analysis of the deposited data

Results flagged for a closer look

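In 10 cases the effect of Dux KD or SE KO on a member differed between PlaB and RA by the interaction test (edgeR, adjusted over all genes). For Dux KD, the difference in log2 fold change, PlaB minus RA, was 2.40 ± 0.12 for Cdh1 (adjusted p = 9.2e-16), 4.00 ± 0.18 for Vim (adjusted p = 1.1e-16), 4.15 ± 0.12 for Fn1 (adjusted p = 2.2e-20) and -1.40 ± 0.36 for Snai1 (adjusted p = 0.00135). Without Dux KD PlaB replicate 1, Zeb2 (-2.51), Snai2 (1.82) and Twist1 (1.45) passed as well. For SE KO it was 2.68 ± 0.12 for Cdh1 (adjusted p = 9.8e-17), 2.75 ± 0.30 for Cdh2 (adjusted p = 5.2e-09), 2.79 ± 0.18 for Vim (adjusted p = 1.7e-13) and 3.40 ± 0.12 for Fn1 (adjusted p = 7.1e-19). It was 2.56 ± 0.51 for Snai2 (adjusted p = 7.9e-05) and -1.06 ± 0.13 for Epcam (adjusted p = 6.5e-08), the latter falling to -0.90 without SE KO RA replicate 2, -0.96 with no low-count filter and -0.97 in a fit of the compared groups. The PlaB libraries stand on one side of both tests, and 52.2% and 49.0% of all genes differed in the same way. With 2 replicates a group, no group could be screened for single outlying libraries.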

How the results depend on the processing

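Of 1630 member values computed under the alternatives, 1510 kept direction and side of the threshold. The sign changed in 42, of which 0 were called, and in 3 of the 42 the adjusted p was under 0.05 with both signs. These were Epcam with the other control, at 0.56 in PlaB against ESC, -0.47 in Zscan4 OE against DMSO and -0.49 in Dux OE against DMSO. Under the settings that keep all libraries, the number of members called moved by more than 1.5 times in 7 cases. With library size only it was 1 for Zscan4 OE against ESC, 1 for R70A OE against ESC and 2 for DMSO against ESC. For DMSO against ESC it was also 2 with no low-count filter and 2 in a fit of the compared groups. It was 1 for Dux KD RA against RA with DESeq2, and 6 for Dux OE with DMSO as the control. On leaving out each library in turn, the number ranged from 5 to 5 for PlaB against DMSO, 5 to 6 for RA, 0 to 1 for Zscan4 OE, 0 to 1 for Dux OE, 2 to 2 for R70A OE against ESC, 1 to 2 for R70A OE against Dux OE and 1 to 2 for DMSO against ESC. It ranged from 1 to 2 for SE KO Dux OE, 1 to 2 for SE KO RA, 7 to 7 for SE KO PlaB, 1 to 3 for Dux KD RA, 4 to 5 for Dux KD PlaB and 2 to 2 for Dux KD Zscan4 OE, and from 4 to 7 and 5 to 7 for the interactions of Dux KD and SE KO. The replicate block changed no member's call and no count: 5 members were called in PlaB and 7 in SE KO PlaB with the block.

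Over all genes, 1992 were called in Dux OE and 3550 in R70A OE against ESC, and 3811 and 1897 with DMSO as the control. The share of calls that were higher went from 66.5% to 76.7% in RA, from 62.3% to 76.6% in Zscan4 OE, from 60.4% to 77.5% in R70A OE and from 44.8% to 58.9% in R70A OE against Dux OE with library size only. Of 130 RPKM levels, 54 moved by more than 1 SD with library size only. The causes were not tested. Depth limits Zeb2, Snai2 and Twist1, which had under 20 counts in several libraries.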

Other observations

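The other marker lists moved as follows. The 8 mesendoderm markers, which include the gastrulation genes Eomes and Mixl1, summed to 3.48 to 5.36 CPM in SE KO Dux OE, 10.5 to 11.5 CPM in PlaB, 13.2 to 15.3 CPM in DMSO and 18.7 to 21.7 CPM in SE KO PlaB, so their RNA was scarce in every group. Of the 10 neural markers, Tubb3 was at 294 CPM in untreated ESC, 112 CPM in DMSO and 89.9 CPM in RA, while Nes and Map2 ran the other way, at 14.7 and 4.74 CPM in ESC, 30.8 and 22.3 CPM in DMSO and 52.1 and 40.6 CPM in RA. Of the 8 trophectoderm markers, Tfap2c was at 174 CPM in Dux OE and 64.1 CPM in ESC. Of the 7 tested in that comparison, 2 were called higher and 5 were not called, with a median log2 fold change of -0.33, and Elf5 was at 0 in both Dux OE libraries.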
